A study of Homo sapiens with 2 samples.

Results

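The zinc finger genes of human chromosome 19 that are named ZNF were followed through the CRTC2 RNA immunoprecipitation (RIP) of HCCLM3 cells. A peak was counted for them when it lay on chromosome 19 and its gene had a symbol made of ZNF, a number and at most 1 further letter. For exon and intron peaks the gene was the one whose exon or intron was named, and for all other peaks it was the gene assigned by the authors. This gave 1633 of 175546 peaks in 196 of 19480 genes, or 20.1% of the 8116 peaks on chromosome 19. A RefSeq gene table lists 246 protein-coding ZNF genes on this chromosome, which is 48.3% of the 509 in the genome. All 196 genes were among them, and 47 had no peak on chromosome 19. The comparison groups were 2446 peaks in 217 ZNF genes of other chromosomes and contigs, and 6483 peaks in 1017 other genes of chromosome 19.

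HCCLM3 is an established hepatocellular carcinoma line, used here with its wild-type genotype and without any stated treatment. The series holds 1 library of RNA precipitated with CRTC2, which serves CREB as a transcriptional coactivator, and 1 library of input RNA from the same line. There was no replicate and no precipitation with a control antibody, so nothing below has a replicate check, and CRTC2-bound and carried-over RNA cannot be told apart. The study asked which transcripts CRTC2 associates with, as part of work on its condensates with the m6A reader YTHDF2. Of 16 hepatocyte markers, 9 had an exonic peak, among them ALB (2.45-fold on 3 RIP fragments) and AFP (2.68-fold on 2). APOA1, TTR, TF, FGG and FOXA2 had peaks of other classes only, and APOA2 and SERPINA1 had no peak of any class. Of 7 blood markers 1 had an exonic peak (ITGAM), and of 7 stellate, endothelial and fibroblast markers 4 had one (PECAM1, KDR, LUM and LYVE1). Of all genes in the list 55.1% had one, so these counts do not tell the cell type. Folds compare the RIP with the input and are not expression levels.

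ZNF genes of this chromosome mostly encode proteins with a row of cysteine-histidine zinc fingers that read DNA, often preceded by a KRAB domain. The KRAB domain binds the corepressor TRIM28 (KAP1), which brings in the histone methyltransferase SETDB1 and HP1 proteins, and many of these factors silence transposable elements. The genes arose by tandem duplication and stand in clusters. In a typical gene the KRAB domain is encoded by short internal exons, while the whole finger array lies in 1 long last exon, whose repeats resemble those of the neighbours. Reads from such repeats can be hard to place, and whether the alignment split them between paralogs was not tested.

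Each peak carries the authors' fold enrichment, a linear ratio of RIP over input at the summit, and their q, the p adjusted over the list. From the fold and p of each peak, the RIP fragments at its summit and the input level there were worked back. The input level is in units in which 1 input fragment counts as 0.634, and its floor is 0.0298. Chromosome 19 ZNF peaks held a median of 1 fragment (quartiles 1 and 3, at most 19). A single fragment lay behind 51.0% of them (48.6 to 53.5), against 48.0% in ZNF genes elsewhere, 40.5% in the other genes of the chromosome and 46.2% in the whole list. The intervals given with folds are exact Poisson 95% intervals of the fragments at a fixed input level, those given with shares are exact Clopper-Pearson 95% intervals, and both cover counting error only.

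Exonic peaks, meaning exon peaks and UTR peaks that overlap the assigned transcript, numbered 658 and lay in 155 of the 196 genes (79.1%, 72.7 to 84.6). Of ZNF genes elsewhere 85.3% (79.8 to 89.7) had one, of the other chromosome 19 genes in the list 52.4% (49.3 to 55.5), and of all listed genes 55.1%. All members are protein-coding, while the last 2 sets were not limited to protein-coding genes, so these shares are over unlike sets. The 658 peaks had a median fold of 1.89 (quartiles 1.79 and 2.47), against 1.94 for all exonic peaks of the list. The limit of q at 0.05 was met by 9 of 658, or 1.37% (0.627 to 2.58), where 2.67% of all 66681 exonic peaks met it. By gene it was 8 of 155, or 5.16% (2.25 to 9.92), against 12.5% of all genes with an exonic peak. The other genes of chromosome 19 stood near the members, with 32 of 533 (interval 4.14% to 8.37%), as did ZNF genes elsewhere, at 7.03% (3.79 to 11.7). A fold of at least 4 was reached by 6 exonic peaks (0.912%, 0.335 to 1.97), against 2.88% of all exonic peaks. By gene it was reached by 6 (3.87%), against 13.5% of genes. In ZNF genes elsewhere it was 2.55% of exonic peaks (1.70 to 3.66) and 11.4% of genes. The other chromosome 19 genes had 2.12% (1.58 to 2.78) and 8.82%. The intervals for peaks overlapped that of the members, and none was made for these gene shares. The summits differed in depth as well, since a gene's deepest exonic summit held a median of 3 fragments here, 4 in ZNF genes elsewhere and 6 in all genes. How much of the difference in calls goes with depth was not tested.

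Among exonic peaks, the highest folds were those of narrow peaks in internal exons. ZNF649, a KRAB zinc finger gene, held the highest of them in exon 3 of 5 (hg38 chr19:51896823-51896895), with 9 RIP fragments over an input level of 0.275. Its fold was 7.84 (4.01 to 14.2), and its −log10 q of 6.22 was the highest of the exonic peaks in these genes. Its other exonic peaks stood at 2.41 in exon 4, at 3.06 and 3.80 in exon 5, and at 3.80 in the 5′ UTR. The antisense gene ZNF649-AS1 covers the summits of all 5, and the peaks carry no strand. ZNF264, also of the KRAB type, had a single peak in all, in exon 3 of 4 (chr19:57205396-57205510), with 9 fragments over 0.634 and a fold of 6.12 (3.13 to 11.1). Its neighbour ZNF805 reached 5.51 (2.73 to 10.3) in exon 2 of 4 (chr19:57243921-57244078), on 8 fragments over 0.634. ZNF557 reached 5.27 (2.30 to 11.1) in exon 6 of 8 (chr19:7081382-7081485), on 5 fragments over 0.139. These 4 peaks were 73 to 158 bp wide, and each reached q of 0.05. Their input levels were at or below that of 1 input fragment, 0.634, and the intervals leave out the counting error of the input. ZNF714 stood next among exonic peaks at 4.28 (1.96 to 8.61) in exon 6 of 7, on 6 fragments and without reaching that q. The intervals of all 5 overlapped, so their order is not settled by the counts.

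**Figure D1:**
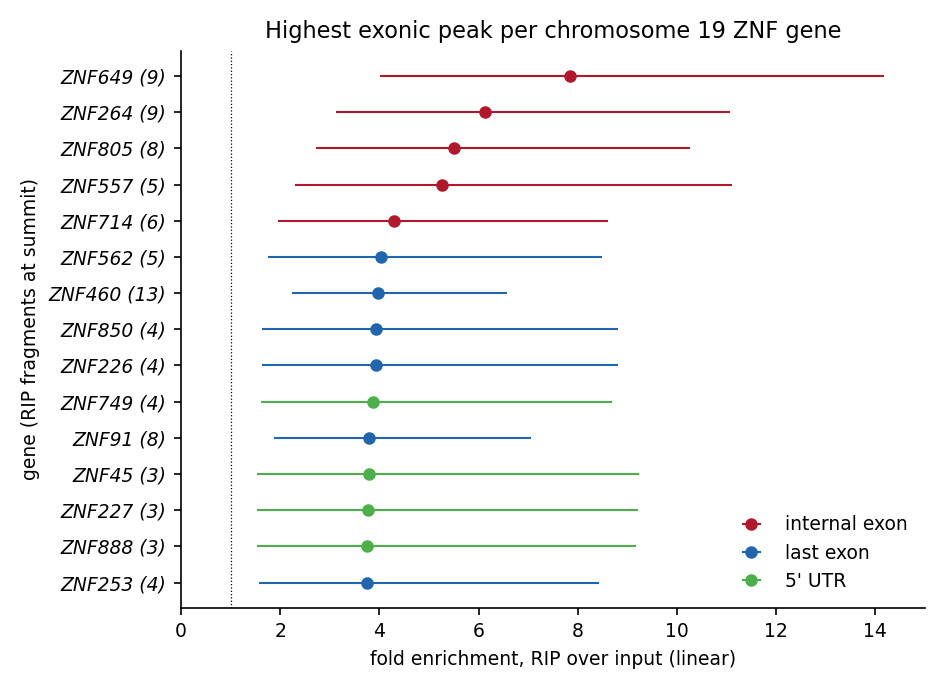
Highest exonic peak of the 15 chromosome 19 ZNF genes with the highest fold (x axis, linear fold of RIP over input; points, authors' fold; bars, exact Poisson 95% intervals; number of RIP fragments after the gene name; dotted line, a fold of 1). The upper 5 genes peak in internal exons, from ZNF649 at 7.84 to ZNF714 at 4.28, and all bars overlap their neighbours.

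Last exons, where the finger array is usually encoded, held most of the exon peaks. Of 373 peaks in the exon class 273 lay in the last exon of the named transcript, or 73.2% (68.4 to 77.6). The share was 37.4% (33.8 to 41.2) in ZNF genes elsewhere and 7.50% (6.40 to 8.72) in the other genes of chromosome 19. The transcripts named in these peaks had a median of 5 exons here, 8 in ZNF genes elsewhere and 15 in the other chromosome 19 genes. Neither the number nor the length of exons was adjusted for, so the shares do not show a preference for last exons. The last-exon share fell to 65.0% when exon peaks were kept only where the exon's gene was also the assigned gene.

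Median folds were alike in both kinds of exon, at 1.98 in 273 last-exon peaks and 1.93 in 100 internal-exon peaks. Each rested on a median of 2 fragments, and the cut of the list by p leaves such medians little room to differ. The same q limit was met by 4 of 100 internal-exon peaks (4%, 1.10 to 9.93), where the whole list has 3.17%, and by 1 of 273 last-exon peaks (0.366%, 0.00927 to 2.02), where the list has 0.806%. Both shares are thus near those of the whole list, and the intervals of the 2 kinds of exon overlap. Of the 6 exonic peaks at a fold of at least 4, 5 were in internal exons and 1 was in a last exon, that of ZNF562 (4.02, 1.76 to 8.50, on 5 fragments). Over the whole list 85.5% of the 1922 exonic peaks at this fold lay in internal exons, so 5 of 6 is near the background. Within the 58 genes that had both kinds of peak, the highest internal-exon fold exceeded the highest last-exon fold in 23 and was lower in 34. It was higher in 33 of 63 ZNF genes elsewhere and in 46 of 68 other genes of chromosome 19. The highest of several peaks depends on their number, which was larger in last exons here.

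**Figure D2:**
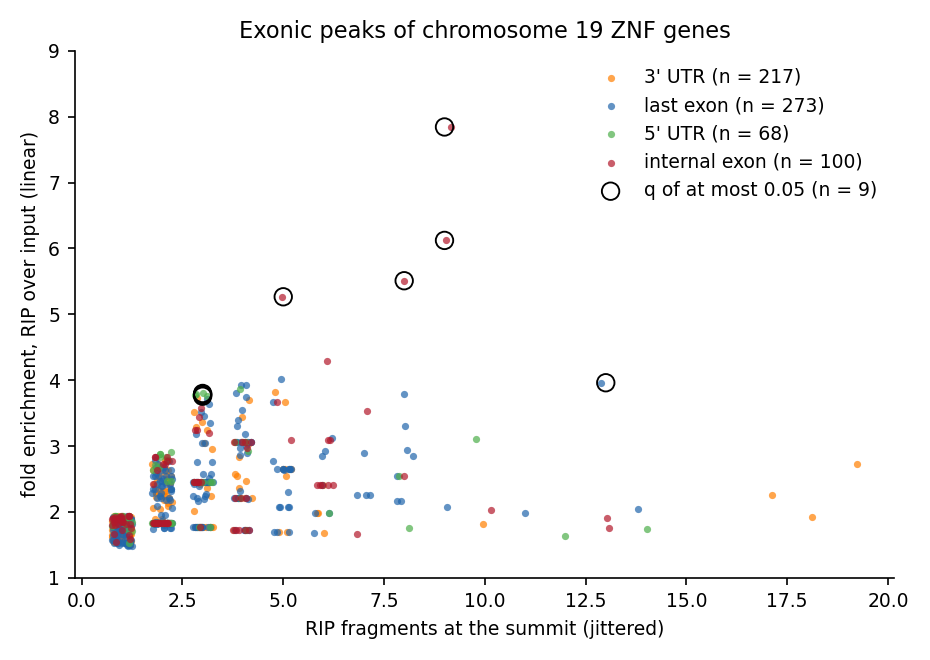
Fold of RIP over input (y axis, linear) against RIP fragments at the summit (x axis, jittered) for the 658 exonic peaks of chromosome 19 ZNF genes, coloured by region, with rings on the 9 peaks that met the q limit. The 4 highest points are internal-exon peaks on 5 to 9 fragments, while summits of 14 to 19 fragments stay below a fold of 3.

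ZNF460 held the deepest single summit of these genes. Its last-exon peak (exon 3 of 3, chr19:57290725-57291374) held 13 fragments over an input level of 2.53, a fold of 3.96 (2.24 to 6.57), and was the only last-exon peak of these genes at q of 0.05. The adjoining 3′ UTR peak held 19 fragments over 6.34, the most of any exonic peak in these genes, with a fold of 2.73 (1.70 to 4.18). Beyond the annotated end of the gene another 6 peaks followed, all in the distal intergenic class, with 4 to 12 fragments each. The pair farthest downstream reached q of 0.05, one at 4.48 (2.48 to 7.57) on 12 fragments, 4171 bp past the end, and one at 4.41 (2.26 to 7.98) on 9 fragments, 6245 bp past it. The RefSeq table places neither in a gene. Nearer the start, the 5′ UTR peak stood at 2.55 on 8 fragments, and the promoter peaks at 1.98 on 6 and 1.87 on 8, the former also inside ZNF460-AS1. The intervals of the high and low peaks overlap.

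The other exonic peaks at q of 0.05 rested on 3 fragments each, all in 5′ UTRs over low input. They made up 4 of 68 such 5′ UTR peaks (5.88%, 1.63 to 14.4), where the whole list has 3.16%, within that interval. They were found in ZNF649 (3.80, 1.54 to 9.28), ZNF45 (3.78, 1.53 to 9.24), ZNF227 (3.78, 1.53 to 9.22) and ZNF888 (3.76, 1.52 to 9.17), with input levels from 0.0530 in ZNF649 to 0.0648 in ZNF888. An antisense gene, ZNF45-AS1, covers the summit in ZNF45. Just outside the limit stood a 3′ UTR peak of ZNF443, with a −log10 q of 1.298, a fold of 3.72 and also 3 fragments. None of the 217 3′ UTR peaks that overlap the assigned transcript reached this q, where 0.904% of such peaks in the whole list did. A count of 0 allows a share of up to 1.38% (3 counts of 217), or 1.69% as the upper end of the exact interval, so the share is not distinguishable from the background at this depth.

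The genes with the most exonic peaks had highest folds from 2.67 to 4.02. ZNF431 held 18 exonic peaks, 13 of them in its 3′ UTR, and 13 rested on 1 fragment. Its highest exonic fold was 3.40, in the last exon. ZNF585A, ZNF780B and ZNF850 held 13 each, with highest folds of 2.83, 2.67 and 3.92. ZNF562, ZNF229 and ZNF791 held 10 each, with highest folds of 4.02, 3.45 and 2.998, and ZNF226, ZNF180 and ZNF565 held 9, with 3.92, 2.93 and 2.89. Over the 155 genes the number of exonic peaks and the highest fold had a Spearman rho of 0.53, a description only, since a gene with more peaks has more chances of a high one. In ZNF749, with 5 exonic peaks, the highest fold was 3.86 in the 5′ UTR.

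Deep summits can belong to more than 1 gene in these clusters. ZNF565 had summits of 18 and 17 fragments, with folds of 1.92 (1.18 to 2.98) and 2.26 (1.37 to 3.54), and 5 of its 9 exonic peaks also lay inside ZNF146, which encodes a protein of zinc fingers without a KRAB domain. Over all members, 62 of 658 exonic peaks (9.42%) had another gene of the RefSeq table at the summit. Of 137 3′ UTR peaks outside the assigned transcript, 123 lay in another gene named ZNF or ZFP and not within the RefSeq span of their own. ZNF431 had 9 such peaks inside ZNF714, ZNF780B had 7 inside ZNF780A, and ZNF460 had 4 inside ZNF805. Among the 137 the highest was a peak assigned to ZNF600 (5.41, 2.47 to 10.9, on 6 fragments), whose summit lies within the RefSeq spans of both ZNF600 and ZNF28. These peaks were not counted as exonic.

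The class that the authors annotated as distal intergenic took a larger share of peaks than in the comparison groups. It held 241 of the 1633 peaks, or 14.8% (13.1 to 16.6), against 6.87% (5.90 to 7.94) in ZNF genes elsewhere and 3.78% (3.33 to 4.27) in the other genes of chromosome 19. The interval stayed clear of both, but it treats peaks as separate. The 241 peaks lay in 59 genes, with 20 in ZNF91, 15 each in ZNF607 and ZNF792, and 14 each in ZNF233 and ZNF486. Whether the difference holds by gene was not tested. Of these 241 peaks, 67.2% rested on 1 fragment, 131 lay past the 3′ end of the assigned transcript at a median distance of 4283 bp, and 6 reached q of 0.05 (2.49%, 0.919 to 5.34, against 1.08% of the class in the whole list). By the RefSeq table, 31 of the 241 lay within the span of their own gene, 24 in another gene named ZNF or ZFP, 25 in some other gene and 161 in no gene. This split was not made for the comparison groups. ZNF91, a KRAB factor known for silencing SVA retrotransposons, accounted for 20 of those 31, and 15 of its 20 rested on 1 fragment. Its exonic peaks were deeper, 8 in all, with the highest fold of 3.79 (1.88 to 7.06) on 8 fragments in the last exon (chr19:23362010-23362237). One of its intergenic peaks reached q of 0.05, at 3.76 on 3 fragments and 8404 bp past the end of the assigned transcript but within the RefSeq span of the gene. ZNF552 (5.51, 2.73 to 10.3, on 8 fragments), ZNF792 (4.54, 1.90 to 10.2, on 4) and ZNF675 (3.75 on 3) held the other intergenic peaks at that q besides those of ZNF460. Intron peaks were fewer, at 13.4% (11.8 to 15.2) against 22.3% in ZNF genes elsewhere and 20.2% in the other chromosome 19 genes.

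**Figure D3:**
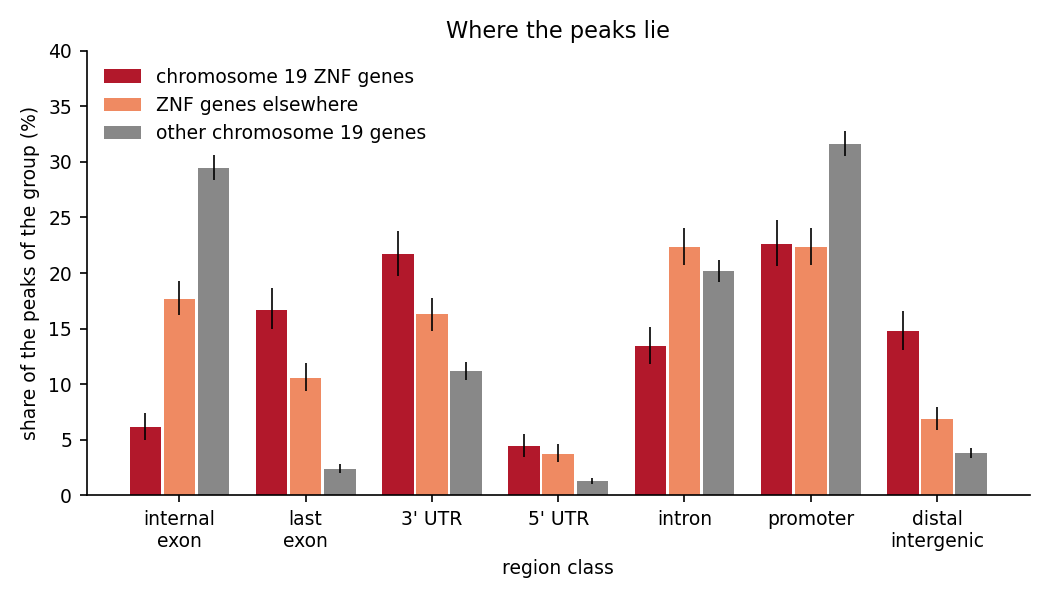
Share of peaks in each region class (y axis, percent of the group's peaks; bars, share; lines, exact Clopper-Pearson 95% intervals) for chromosome 19 ZNF genes (1633 peaks), ZNF genes elsewhere (2446) and other genes of chromosome 19 (6483). The chromosome 19 ZNF genes have 16.7% of their peaks in last exons and 14.8% in distal intergenic sequence, above both other groups, and 6.12% in internal exons, below both.

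**Figure D4:**
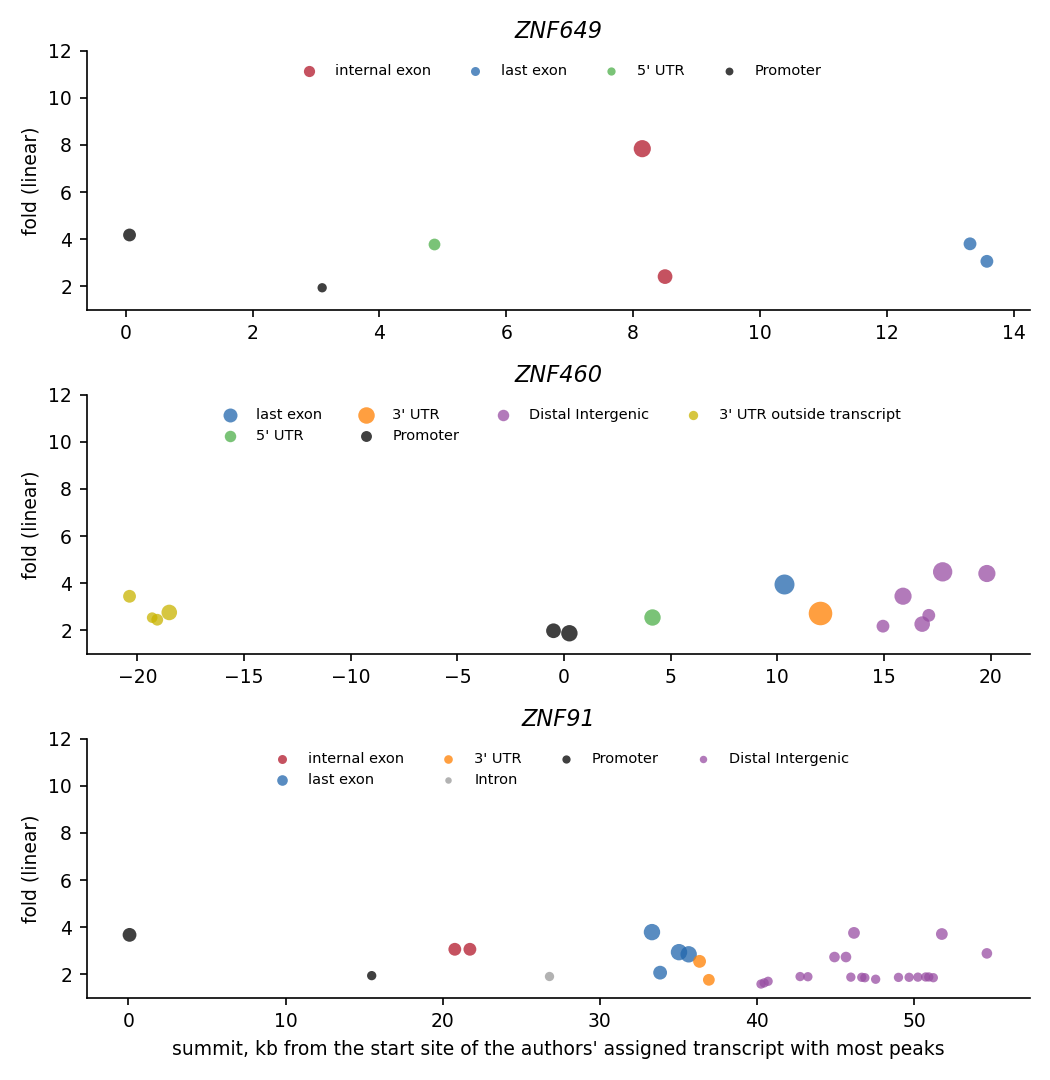
Fold of RIP over input (y axis, linear) of every peak counted for ZNF649, ZNF460 and ZNF91 against the distance of its summit from the start site of the assigned transcript that holds most of the gene's peaks (x axis, kb), with colours for region class and larger points for more RIP fragments. ZNF649 has its 7.84-fold peak in an internal exon, and ZNF460 has its highest folds in and past the last exon. ZNF91 shows a run of peaks of mostly 1 fragment past its assigned transcript, within the RefSeq span of the gene.

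Over all classes, 28 of 1633 peaks reached q of 0.05, or 1.71% (1.14 to 2.47), and 1.63% of the whole list did, so the share is near the background. They lay in 25 genes, 9 in exonic and 19 in other classes, 11 of them rested on 3 fragments, and 10 were wider than 1 kb. The promoter class, which covers 3000 bp on both sides of a start site, held 9 of them (2.43% of 370, 1.12 to 4.57), near the 1.77% of that class in the whole list. Among them ZNF573 reached 5.77 (2.52 to 12.2) on 5 fragments in a peak 20506 bp wide, and ZNF431 reached 4.86 (2.03 to 10.9) on 4 fragments at the input floor. ZNF274, which guides SETDB1 to the ends of zinc finger genes, had a promoter-class peak of 4.41 (2.26 to 7.98) on 9 fragments, 2706 bp past its start. The intron class held 3 (1.37% of 219, 0.283 to 3.95, against 0.372% in the whole list), in ZNF780B (4.55), ZNF146 (4.14, on 11 fragments, also inside ZNF565) and ZNF254 (3.88).

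Promoter sequences could be matched for 173 of the 196 genes, in 214 RefSeq windows that run from 250 bases before to 50 bases after a start site. A summit of a peak of at most 1 kb lay in a window in 48 genes, and 14 of these 48 peaks rested on 1 fragment. The 2 that reached q of 0.05 are those of ZNF567 (4.64, 1.94 to 10.4) and ZNF577 (4.58, 1.91 to 10.3), each on 4 fragments over input levels of 0.0786 and 0.0923. Their sequences are given to show where the summits fall, 9 bases after the start site of ZNF567 and 14 before that of ZNF577. ZNF547 (3.40 on 3 fragments) is added as the one gene with a full CREB site, TGACGTCA, among the 7 such peaks at a fold of at least 3; it had no exonic peak, and its summit, 45 bases after the start site, also lies in TRAPPC2B. The sequences run from 100 bases before the start site to 30 from it on, on the gene's strand in GRCh38.p14, and capitals mark the bases under the peak.
ZNF567, chr19:36687512-36687641, plus strand: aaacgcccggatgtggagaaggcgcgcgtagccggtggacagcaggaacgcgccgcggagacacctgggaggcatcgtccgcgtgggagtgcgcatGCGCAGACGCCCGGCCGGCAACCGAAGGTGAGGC
ZNF577, chr19:51887922-51888051, minus strand: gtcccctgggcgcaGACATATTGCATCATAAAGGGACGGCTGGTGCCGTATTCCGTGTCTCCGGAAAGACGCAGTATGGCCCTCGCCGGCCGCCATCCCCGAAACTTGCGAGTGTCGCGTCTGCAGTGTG
ZNF547, chr19:57363451-57363580, plus strand: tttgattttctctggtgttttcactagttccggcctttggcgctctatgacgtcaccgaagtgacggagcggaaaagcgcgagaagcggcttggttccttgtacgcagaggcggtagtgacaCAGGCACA

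The palindrome TGACGTCA, the cAMP response element to which CREB binds, was found in 9 of the 214 windows (4.21%), in 9 of 288 windows of ZNF genes elsewhere (3.13%) and in 649 of 35116 windows of all genes (1.85%). The shorter TGACG, searched on both strands and also contained in the palindrome, was in 37.9%, 31.9% and 24.6% of them. Median GC content was 60.3%, 62.3% and 58.7%. The 8 genes with the palindrome were ZNF121, ZNF266, ZNF460, ZNF543, ZNF547, ZNF561, ZNF562 and ZNF875. Of these 8 genes, 7 had an exonic peak, where 79.1% of all members had one, with highest folds from 2.20 in ZNF875 to 4.02 in ZNF562. ZNF460 alone had one at q of 0.05, which 5.16% of the 155 members with an exonic peak reached. So few genes cannot be told from those shares. The windows of ZNF121, ZNF561 and ZNF562 share bases on both sides of the palindrome, so their matches are not separate observations. No interval was made for the window shares. A match is a description of the letters only.

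Along the chromosome, the clusters of ZNF genes differed in the share of all their RefSeq genes, listed or not, that were members with an exonic peak. The 263 ZNF genes of the RefSeq table, pseudogenes included, were split wherever successive starts lay more than 1 Mb apart. This gave 17 groups, 7 of them with at least 10 genes. Only members counted as carrying a peak, and all members are protein-coding, as are 246 of the 263. The 10 RefSeq genes whose symbols the list does not give, with 10 exonic peaks, thus counted as without one. With RefSeq symbols 158 genes rather than 155 had an exonic peak, and shares by group were not remade with them. Among the 7 groups of at least 10 genes, the lowest share was in the group from 19.7 to 24.1 Mb. There 14 of 42 genes had an exonic peak (33.3%, 19.6 to 49.5). Among them it was highest from 43.5 to 45.1 Mb, with 21 of 24 (87.5%, 67.6 to 97.3), followed by 36.2 to 37.8 Mb with 21 of 27 (77.8%, 57.7 to 91.4) and 55.5 to 58.5 Mb with 42 of 60 (70%, 56.8 to 81.2). These 3 intervals lie above that of the lowest group. The groups from 7.07 to 9.79 Mb (8 of 16), 11.5 to 12.6 Mb (13 of 28) and 51.6 to 53.6 Mb (23 of 43) lay between. Median exonic folds ranged over the 7 groups from 1.84 to 2.01. The lowest group, which includes ZNF91, ZNF431 and ZNF714, also had the largest intergenic share of these 7, at 28.0% of 207 peaks. Expression and unique mapping of the genes were not available here to set beside these shares.

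**Figure D5:**
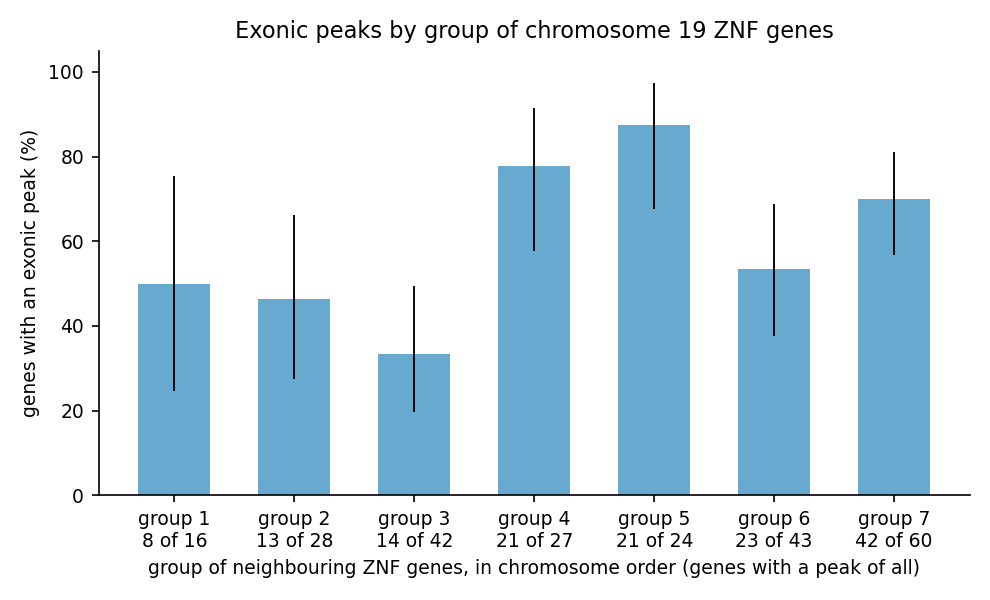
Share of all RefSeq ZNF genes, those without any peak included, with an exonic peak (y axis, percent; lines, exact Clopper-Pearson 95% intervals) in the 7 groups of at least 10 neighbouring ZNF genes, in chromosome order (x axis, with the number of genes with a peak of all genes in the group). Only members count as having a peak, so RefSeq genes without a symbol in the list count as without one. Group 3, at 14 of 42, lies below the groups at 21 of 27, 21 of 24 and 42 of 60 with no overlap of intervals.

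Genes for the proteins that KRAB factors act through were also examined. Of 20 such corepressor genes 19 carried exonic peaks, in 4 of them at q of 0.05, where 12.5% of all genes with an exonic peak reached it and 55.1% of listed genes had such a peak. The 19 corepressor genes had a median highest fold of 3.10, against 2.65 over the 155 members and 2.83 over all genes with an exonic peak. They held from 1 (CBX1) to 27 (DNMT1) exonic peaks, where the median was 4 in members and 4 in all genes with one. The highest fold and the calls at q depend on that number, which was not adjusted for. The highest were the ATPases MORC3 (4.90, 2.33 to 9.44, on 7 fragments) and MORC2 (4.85, 2.31 to 9.36, on 7), the remodeller CHD4 (4.85, 2.56 to 8.55, on 10) and the helicase SMARCAD1 (4.14, 2.24 to 7.13, on 11). TRIM28 itself, also on chromosome 19, had 1 peak and none that was exonic. Among 18 further chromosome 19 symbols of zinc finger, SCAN or BTB type outside the ZNF names, 4 carried exonic peaks, none at q of 0.05. They were ZSCAN5A (3.64), ZBTB7A (3.10), ZFP14 (3.06) and ZSCAN22 (2.07). Under 10 of the 18 symbols no peak of any class was found. ZFP112 is among these 10 but is an older symbol of ZNF112, a member with 4 peaks, 3 of them exonic.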

How the data were processed

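The submitters' processing notes name HISAT2, MACS2 and the hg38 build, and no version or role of either tool is stated there. The authors deposited 1 annotated peak list for the RIP over the input, with a linear fold enrichment (ratio) per peak, a score, and other values such as peak width, summit and distance to a start site, per the file headers. The −log10 p and −log10 q columns of the deposited list have spoiled headers and were identified by place and values; the lowest −log10 p was 1.30. The deposited score is 10 times the −log10 p rounded down and was not used.

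Fragments were recovered as whole numbers for which fold is (fragments + 1) / (input + 1) and p the Poisson tail. They met both values within 0.001 for 100% of the 1633 peaks (a single number for 98.1%), against 3.96% of all peaks after shuffling p, and the step was tested on simulated data. Symbols come from the deposited list. Genes were named by fixed rules (the 10 highest folds, the 10 with most exonic peaks, every gene with an exonic peak at q of at most 0.05); ZNF91, ZNF146, ZNF274, ZNF443 and others with non-exonic peaks at that q were named after their values were seen. Members and lists were chosen with earlier results of these data known. Sequences and the gene table are from RefSeq (GRCh38.p14). With 1 library per group no test was made. Python 3.11.15, SciPy 1.17.1 and pandas 2.3.3 were used.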

Additional observations from a re-analysis of the deposited data

How the results depend on the processing

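No paired analysis was possible because each group has 1 library. Of 39 values under alternatives, 19 stayed within 1.5 times the count or within the interval of the share or median, and 20 moved, 16 of them under limits on fold, fragments or q, which select higher peaks by construction. The limits q of at most 0.05 and 2 fragments, and symbols from the RefSeq table, were chosen after seeing the data. Genes with an exonic peak (155) numbered 6 at a fold of at least 4, 46 with at least 5 fragments and 8 at q of at most 0.05. The exonic share of peaks in exons, introns and promoters (52.8%) was 42.9% at that fold, 68.6% with 5 fragments, 68.1% with 2, 42.9% at that q, 60.1% up to 1 kb and 47.8% where the gene of the exon was also the assigned one. The median exonic fold (1.89) was 5.39, 2.41 and 3.96 in the order of the gene counts, and 2.36 with 2 fragments. The share at the q limit (1.37%) was 66.7% at a fold of at least 4 and 6.02% with 5 fragments. The last-exon share (73.2%) was 16.7% of 6 peaks at that fold, 67.2% with 5 fragments, 20% at that q, 66.9% with the assigned gene in every class and 65.0% where both genes were the same; the cause of the last pair was not tested. An overlap of 50% with annotated exons was not run, since no exon coordinates were used here. The RefSeq table adds 10 genes with 32 peaks whose symbols the list does not give.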
